A study of Rattus norvegicus with 18 samples.

Results

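Egr1, Klf10, Zfp36 and Ccn1 are 4 immediate early genes, and their probe sets were followed across an array time course of rat thyroid cells given thyroid-stimulating hormone (TSH). The platform annotation assigned 10 of the 8740 probe sets tested to these genes: 4 to Egr1, 3 to Klf10, 2 to Zfp36 and 1 to Ccn1. The genes were selected on their rise in FRTL5 cells at 30 min. Their differences that involve the FRTL5 30 min mean are therefore given as a description, with no test. Their other comparisons were tested, and all 10 probe sets stayed in them because no filter on signal was applied. Each test still used a spread pooled over all 18 arrays, the FRTL5 30 min arrays included. Wide scatter at FRTL5 30 min therefore widened the SE in the other comparisons too. Egr1 rc_AI176662_s_at had an SD of 1.83 at FRTL5 30 min and 0.11 to 0.40 in the FRT/TSHR groups. Its limma SE was 0.56 for FRT/TSHR 30 min minus basal.

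Expression was measured in 6 groups of 3 biological replicates, on 18 one-colour Affymetrix arrays. FRT/TSHR is a de-differentiated rat thyroid line that, by its name, carries the TSH receptor; it was grown in a modified F12 medium (Coon's) and was sampled untreated (basal) and with bovine TSH at 1 U/L for 30 min or 17 h. FRTL5 is a differentiated rat thyrocyte line; it was kept for 5 days in 5H medium lacking TSH and was sampled at the same times, with bovine TSH at 0.1 U/L. Both lines spent 12 h without serum before TSH, basal groups included. Line, medium and dose differed together and cannot be told apart, and with no untreated group at 30 min or 17 h, time and handling cannot be told apart from TSH.

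In thyroid cells TSH acts through a G protein-coupled receptor that raises cyclic AMP, which activates protein kinase A and the transcription factor CREB; strong stimulation of the receptor can also engage phospholipase C and MAP kinases. Immediate early genes are transcribed within minutes of such signals without new protein synthesis, mainly through CREB at cyclic AMP response elements and through serum response factor at CArG boxes, and their transcripts are short-lived. Egr1 encodes a zinc finger transcription factor, and Klf10 (also called Tieg) a Krüppel-like zinc finger repressor induced by TGF-beta. Zfp36 encodes tristetraprolin, which binds AU-rich elements in mRNAs and hastens their decay, and Ccn1 (also called Cyr61) encodes a secreted matrix-associated protein that binds integrins.

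In the RefSeq annotation of the GRCr8 build, Egr1 lies on chromosome 18 at chr18:26737078-26740877, Klf10 on chromosome 7 at chr7:71352612-71358680, Zfp36 on chromosome 1 at chr1:92796628-92799108 and Ccn1 on chromosome 2 at chr2:237222730-237225689. RefSeq promoter windows were matched for 3 of the 4 genes, and the 250 bases before each annotated start are printed because the members were chosen for moving together. They are Egr1 (plus strand, chr18:26736828-26737077), Zfp36 (minus strand, chr1:92799109-92799358) and Ccn1 (minus strand, chr2:237225690-237225939), each written 5′ to 3′ toward the start. Capitals mark matches to any of 5 motifs searched on both strands: the cyclic AMP response element TGACGTCA, its core TGACG, the EGR site GCGGGGGCG, the CArG box and TATAA.
Egr1: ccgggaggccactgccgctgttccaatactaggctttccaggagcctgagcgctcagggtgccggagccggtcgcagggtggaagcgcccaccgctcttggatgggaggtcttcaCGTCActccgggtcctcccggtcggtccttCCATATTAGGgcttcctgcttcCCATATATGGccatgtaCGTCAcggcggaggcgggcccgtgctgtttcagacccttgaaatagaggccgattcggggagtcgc
Zfp36: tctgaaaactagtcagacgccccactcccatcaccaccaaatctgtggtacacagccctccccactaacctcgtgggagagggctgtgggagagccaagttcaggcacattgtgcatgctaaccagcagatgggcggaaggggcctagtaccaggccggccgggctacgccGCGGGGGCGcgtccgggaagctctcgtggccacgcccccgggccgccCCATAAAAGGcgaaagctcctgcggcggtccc
Ccn1: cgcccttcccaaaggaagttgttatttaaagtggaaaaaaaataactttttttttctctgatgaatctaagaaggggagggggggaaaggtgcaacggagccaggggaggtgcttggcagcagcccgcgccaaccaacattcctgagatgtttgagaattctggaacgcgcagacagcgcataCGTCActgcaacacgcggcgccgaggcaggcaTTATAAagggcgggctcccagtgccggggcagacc

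The Egr1 window held 2 CArG boxes, from 105 to 96 and from 83 to 74 bases before the start, set between 2 copies of the core of the cyclic AMP response element, from 135 to 131 and from 66 to 62 bases before it. The Zfp36 window held 1 EGR site, from 79 to 71 bases before the start, and 1 CArG box, from 32 to 23 bases before it. The Ccn1 window held 1 core, from 67 to 63 bases before the start, and TATAA on each strand, overlapping between 35 and 30 bases before it. None of the 3 windows held a full cyclic AMP response element. Among all 33469 RefSeq promoter windows of this length, 1.5% held a CArG box, 2.45% the EGR site, 18.2% the core, 1.59% the full element and 24% TATAA. GC content was 63.2% in the Egr1 window, 65.2% in the Zfp36 window and 54% in the Ccn1 window, against a median of 51.2% over all windows. A match describes letters in these windows only; binding was not measured.

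**Figure D1:**
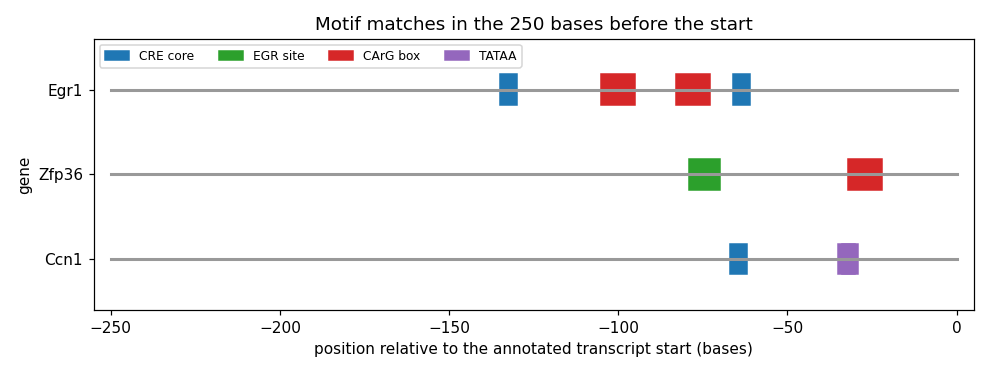
Matches to the searched motifs in the 250 bases before the annotated start of Egr1, Zfp36 and Ccn1. The x axis gives the position relative to the start in bases, each grey line is 1 window and each coloured box 1 match; the CArG boxes of Egr1 lie between its 2 core matches, and Ccn1 has none.

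The deposited values were log2 expression values made with RMA, and 1 unit is a doubling of signal. Array medians lay between 5.47 and 5.58. The lines differed in their markers: the summed level of the 6 thyroid follicular cell markers was 37.3 to 38.6 on FRT/TSHR arrays and 47.4 to 53.7 on FRTL5 arrays. At basal 5 of these 6 were lower and 1 higher in FRT/TSHR, and 4 were called, all lower (Tg, Slc5a5, Pax8 and Foxe1). The 5 measured epithelial markers were all higher in FRT/TSHR, with sums of 44.1 to 45.5 in FRT/TSHR and 23.4 to 25.4 in FRTL5. Of the thyroid markers Tg, the thyroglobulin precursor of thyroid hormone, averaged 4.17 ± 0.19 in basal FRT/TSHR cells and 11.21 ± 0.70 in basal FRTL5 cells (log2, SD, n = 3 each), so the defining marker was low in FRT/TSHR. On the 3 FRTL5 arrays numbered 1 the 3′ minus 5′ signal difference was 1.13 to 1.22 for beta-actin and 0.55 to 0.63 for GAPDH, against −0.14 to 0.28 and 0.03 to 0.30 on the other 15 arrays (log2). Results below are therefore also given without the arrays numbered 1 where that changes them.

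In FRTL5 cells all 10 probe sets averaged higher at 30 min than at basal, and all were lower again at 17 h. In these bulk samples fewer cells with a transcript and less of it per cell cannot be told apart. Egr1 was the member with the widest swing. Its probe set with the highest mean signal, AF023087_s_at, read 7.81, 6.65 and 6.13 on the 3 FRTL5 basal arrays (numbered 1, 2 and 3), 9.94, 11.26 and 11.13 at 30 min, and 6.71, 6.54 and 6.45 at 17 h (log2). The 30 min arrays lay above all basal and all 17 h arrays, and the basal array numbered 1 was the highest of its group. The 30 min minus basal difference was 3.91 ± 0.58 (log2, limma SE), a 15.1-fold higher signal.

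The second Egr1 probe set, M18416_at, had 5.15, 5.33 and 5.12 at basal, 7.19, 10.03 and 10.06 at 30 min and 5.11, 5.39 and 5.21 at 17 h in FRTL5 cells. Here the basal arrays were close together, and the 30 min array numbered 1 was lower than the other two. The difference was 3.89 ± 0.57, or 14.9-fold. The remaining Egr1 probe sets, rc_AI176662_s_at and U75398_s_at, differed by 2.26 ± 0.56 and 1.09 ± 0.34; on U75398_s_at the 30 min and basal arrays overlapped, since the 30 min array numbered 1 read 6.38 and the highest basal array 6.69. The 4 probe sets ordered the arrays alike, with Pearson correlations of 0.79 to 0.97 between pairs of them over the 18 arrays, which share groups and libraries.

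Ccn1, read by the single probe set rc_AA800784_at, had 5.64, 5.56 and 5.62 at basal, 6.99, 8.82 and 8.77 at 30 min and 5.35, 5.26 and 5.16 at 17 h in FRTL5 cells. The basal arrays spanned 0.08, and every 30 min array was above them. The 30 min minus basal difference was 2.58 ± 0.45, or 5.999-fold. All 17 h arrays lay below all basal arrays, with a difference of -0.35 ± 0.45 that did not pass (limma adjusted p = 0.879). That SE was pooled over all groups. The SD was 0.04 at basal and 0.09 at 17 h, but 1.04 at 30 min. Over the alternatives the limma adjusted p ran from 0.230 to 0.967. The share of all probe sets without overlap between these times was not counted, so nothing is read from the separation.

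Zfp36 was higher at 30 min on both of its probe sets, by different amounts. On rc_AA800613_at FRTL5 cells read 6.11, 6.21 and 6.05 at basal, 6.69, 8.06 and 8.28 at 30 min and 6.09, 5.84 and 5.81 at 17 h, without overlap between 30 min and the other times. The difference from basal was 1.56 ± 0.29, or 2.94-fold. On X63369cds_at, the Zfp36 probe set with the higher mean signal, the 30 min arrays read 7.73, 8.87 and 9.32 and the basal arrays 7.54, 7.70 and 7.88, so that the 30 min array numbered 1 fell inside the basal range; the difference was 0.93 ± 0.26, or 1.90-fold.

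Klf10 changed least and spread least. On rc_AI172476_at FRTL5 cells read 8.07, 7.85 and 8.05 at basal, 8.54, 8.72 and 8.46 at 30 min and 8.01, 7.65 and 7.77 at 17 h. The 30 min arrays were above all others, by 0.58 ± 0.13 over basal (1.499-fold). The differences on rc_AI071299_at and U88630_at were 0.81 ± 0.15 and 0.26 ± 0.11, both without overlap between 30 min and basal.

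The 30 min rise that selected the genes was called (adjusted p under 0.05) for 5 of the 10 probe sets, against 21 of 8740 overall (0.24%), and 8 of the 10 had 30 min arrays all above basal arrays, against 3.44% of all probe sets. By size relative to the SE, the last probe set inside that call was Klf10 rc_AI071299_at (0.81 ± 0.15) and the first outside it Klf10 rc_AI172476_at (0.58 ± 0.13). Nothing is read from these shares, because the same contrast chose the members. For FRTL5 30 min against 17 h the share of all probe sets without overlap was not counted, and nothing is read from that separation.

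The replicates of FRTL5 cells differed in the size of the rise. Between same-numbered arrays the 30 min minus basal difference was positive for 10 of 10 probe sets in each replicate, with medians of 0.40 for number 1, 1.63 for number 2 and 1.97 for number 3. Number 1 gave the smallest difference for 8 of the 10. For Egr1 AF023087_s_at the 3 differences were 2.13, 4.61 and 5.00, for Ccn1 1.35, 3.26 and 3.14, for Zfp36 rc_AA800613_at 0.58, 1.86 and 2.23 and for Klf10 rc_AI172476_at 0.48, 0.87 and 0.41. The FRTL5 arrays numbered 1 are those with the large 3′ to 5′ difference in beta-actin, and the part of that in the result was not tested. Without the arrays numbered 1 the FRTL5 30 min minus basal difference was 4.80 (27.9-fold) for Egr1 AF023087_s_at, 4.82 for M18416_at, 3.23 for rc_AI176662_s_at and 1.55 for U75398_s_at. It was 3.20 (9.20-fold) for Ccn1, 2.04 and 1.303 for Zfp36 rc_AA800613_at and X63369cds_at, and 0.64, 1.06 and 0.24 for Klf10 rc_AI172476_at, rc_AI071299_at and U88630_at. The Egr1, Zfp36 and Ccn1 values were thus all larger, and those of Klf10 larger on 2 of 3 probe sets.

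**Figure D2:**
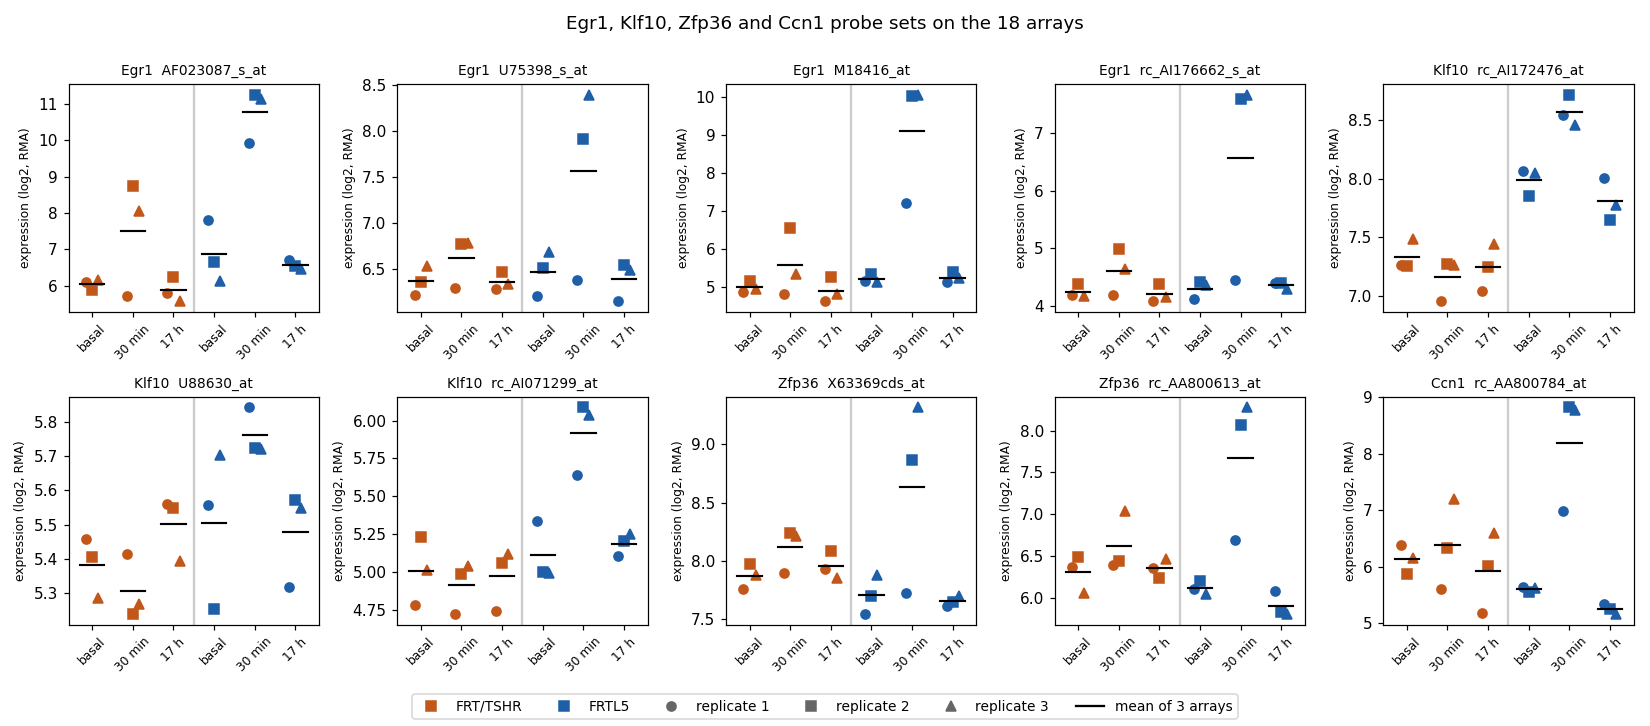
Log2 RMA expression (y axis, a separate scale in each panel) of the 10 probe sets on the 18 arrays, by group (x axis), with FRT/TSHR left and FRTL5 right of the grey line; symbols show the replicate number and bars the mean of 3 arrays. FRTL5 30 min stands highest in every panel, and for Klf10 rc_AI172476_at all 9 FRT/TSHR arrays lie below all 9 FRTL5 arrays.

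After 17 h of TSH none of the 10 probe sets differed from basal in FRTL5 cells by the limma test. Their differences ran from -0.35 to 0.07 (adjusted p 0.70 to 0.99), with 3 higher, 7 lower and a median of -0.07, against a median of 0.01 over all probe sets. In the same comparison 311 of 8740 probe sets passed (3.56%), and 867 did with the replicate number as a block within each line, still with 0 of the 10. The 95% intervals of the 17 h minus basal difference were -1.54 to 0.94 for Egr1 AF023087_s_at, -0.46 to 0.10 for Klf10 rc_AI172476_at, -0.83 to 0.42 for Zfp36 rc_AA800613_at and -1.30 to 0.60 for Ccn1. These basal arrays are also part of the contrast that chose the genes.

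In FRT/TSHR cells, whose arrays played no part in the choice, none of the members passed at 30 min. Egr1 had the largest value. AF023087_s_at read 6.09, 5.88 and 6.16 at basal, 5.72, 8.74 and 8.06 at 30 min and 5.80, 6.24 and 5.56 at 17 h. The 30 min arrays numbered 2 and 3 were above every other FRT/TSHR array, while the one numbered 1 was below all 3 basal arrays. The 30 min minus basal difference was 1.47 ± 0.58, or 2.76-fold with a 95% interval of 1.17 to 6.53 (limma adjusted p = 1.00). Limma called 0 of 8740 probe sets here (0%). An unadjusted p under 0.05 was found for 208 of them (2.38%) and for 1 of the 10 members.

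The Egr1 AF023087_s_at value moved with the arrays included. It was 2.36 without FRT/TSHR 30 min replicate 1 (limma adjusted p = 0.0785), 0.85 without replicate 2 and 1.19 without replicate 3 (adjusted p 1.00 and 0.989), none of which passed, and 0.67 when the 4 Egr1 probe sets were averaged (adjusted p = 0.998). It passed only without all 6 arrays numbered 1, at 2.38 with an adjusted p of 0.00823 and 2 of 8740 probe sets called in all. Over all alternatives the adjusted p ran from 0.00823 to 1.00. The same-numbered differences were -0.37, 2.86 and 1.90. The other 3 Egr1 probe sets had differences of 0.58 ± 0.57 (M18416_at), 0.37 ± 0.56 (rc_AI176662_s_at) and 0.25 ± 0.34 (U75398_s_at), and on each of them the 30 min array numbered 1 was the lowest of its group.

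Zfp36 and Ccn1 had fitted differences of 0.24 to 0.31 at 30 min in FRT/TSHR cells, none of which passed. Ccn1 read 6.39, 5.87 and 6.16 at basal, 5.61, 6.33 and 7.20 at 30 min and 5.17, 6.01 and 6.59 at 17 h. The 3 replicates of Ccn1 disagreed, with same-numbered 30 min differences of -0.78, 0.46 and 1.04 and a fitted difference of 0.24 ± 0.45 (limma adjusted p = 1.00). Zfp36 read 7.76, 7.98 and 7.88 at basal and 7.90, 8.24 and 8.21 at 30 min on X63369cds_at, a difference of 0.25 ± 0.26. All 3 same-numbered differences of that probe set were above 0, at 0.14, 0.27 and 0.33. On rc_AA800613_at Zfp36 differed by 0.31 ± 0.29, with a same-numbered difference of 0.97 for number 3, against 0.02 for number 1 and -0.06 for number 2.

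Klf10 was slightly lower at 30 min in FRT/TSHR cells on all 3 probe sets, and none passed. On rc_AI172476_at the basal arrays read 7.26, 7.25 and 7.48, the 30 min arrays 6.95, 7.27 and 7.26 and the 17 h arrays 7.04, 7.25 and 7.44. The 30 min minus basal difference was -0.17 ± 0.13, with a 95% interval of -0.46 to 0.11. The intervals on rc_AI071299_at and U88630_at were -0.42 to 0.23 and -0.32 to 0.17.

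Across the 10 probe sets 7 were higher and 3, those of Klf10, lower at 30 min in FRT/TSHR cells, with a median of 0.25 against 0.03 over all probe sets. None of the 10 had 30 min arrays all above basal arrays, against 475 of 8740 overall (5.43%). The 30 min array numbered 1 was the lowest of its group for 9 of the 10. The 30 min difference in FRT/TSHR minus that in FRTL5 was below 0 for all 10 probe sets, from -3.31 ± 0.80 for Egr1 M18416_at and -2.35 ± 0.63 for Ccn1 to -0.33 ± 0.16 for Klf10 U88630_at. The selection on FRTL5 favours this direction, so no test is given. At 30 min itself Egr1 AF023087_s_at averaged 7.51 ± 1.58 in FRT/TSHR and 10.78 ± 0.73 in FRTL5, and Ccn1 averaged 6.38 ± 0.79 in FRT/TSHR and 8.19 ± 1.04 in FRTL5 (log2, SD, n = 3 each).

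**Figure D3:**
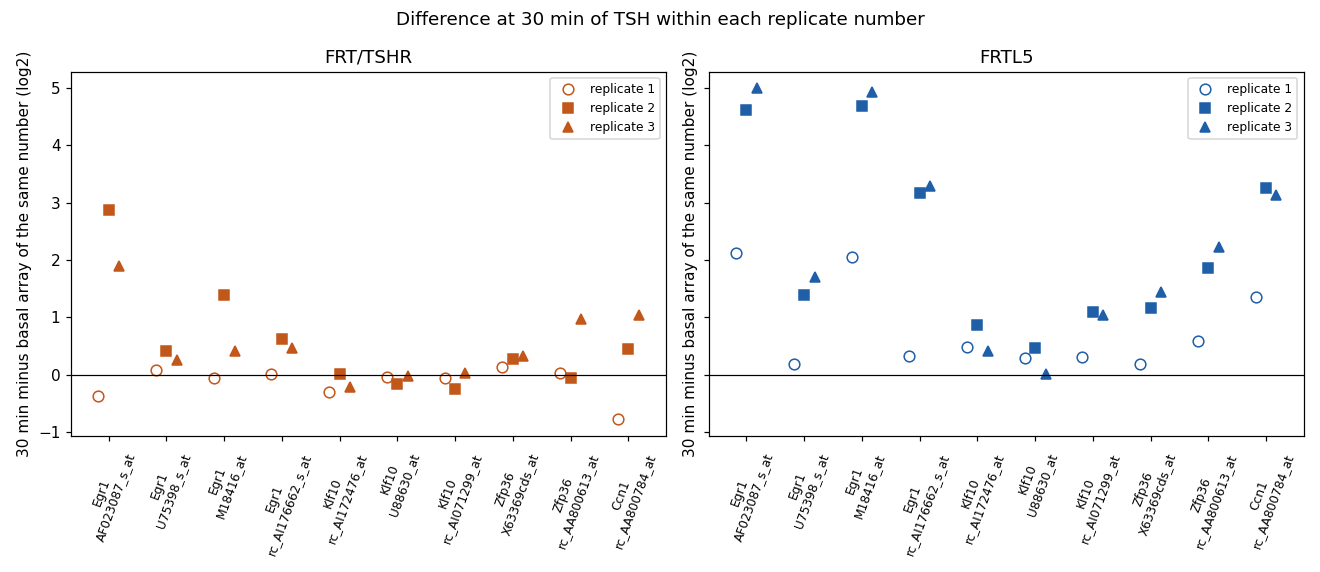
Log2 difference between the 30 min and the basal array of the same replicate number (y axis) for each probe set (x axis), with FRT/TSHR left and FRTL5 right; open circles are replicate 1, squares 2 and triangles 3. In FRTL5 all points lie above 0 and replicate 1 is lowest for 8 probe sets, and in FRT/TSHR replicate 1 of Egr1 AF023087_s_at lies at -0.37 while replicates 2 and 3 lie at 2.86 and 1.90.

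At 17 h none of the members in FRT/TSHR cells passed against basal. Their differences ran from -0.22 (Ccn1) to 0.12 (Klf10 U88630_at), and 0 of 10 passed, as did 0 of all probe sets (0%). An unadjusted limma p under 0.05 was found for 108 of 8740 (1.24%) and for 0 members. The 95% intervals were -1.41 to 1.07 for Egr1 AF023087_s_at, -1.29 to 1.11 for Egr1 M18416_at and -1.17 to 0.74 for Ccn1. The interval of Klf10 rc_AI172476_at was narrower, at -0.37 to 0.19. The same-numbered differences of Ccn1 were -1.21, 0.14 and 0.43. A level near basal is therefore not shown for Egr1 or Ccn1. From 30 min to 17 h Egr1 AF023087_s_at differed by -1.64 ± 0.58 (limma adjusted p = 1.00), where again 0 of all probe sets passed (0%) and 179 (2.05%), 1 of them this member, had an unadjusted p under 0.05. Without FRT/TSHR 30 min replicate 1 the difference was -2.53 (adjusted p = 0.0375), and without the 6 arrays numbered 1 it was -2.50 (adjusted p = 0.00789), so it passed in both. In all, 8 of 8740 probe sets (0.0915%) passed in the first of these fits and 2 (0.0229%) in the second. Without FRT/TSHR 30 min replicate 2 the Egr1 difference was -1.02 (adjusted p = 1.00). The other 9 differed from 30 min to 17 h by -0.67 to 0.19. The 17 h effect in FRT/TSHR minus that in FRTL5 passed for 0 of 10, with values from -0.12 to 0.25. Of all 8740 probe sets 69 passed (0.789%), and 365 with the block within lines, again with 0 of the 10. The FRTL5 basal arrays in this difference are also part of the contrast that chose the genes.

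Between the lines Klf10 rc_AI172476_at was the only member probe set that passed in the main fit, at basal and at 17 h. At basal rc_AI172476_at averaged 7.33 ± 0.13 in FRT/TSHR and 7.99 ± 0.12 in FRTL5 (log2, SD, n = 3 each), and no arrays overlapped. It was lower in FRT/TSHR by 0.66 ± 0.13 on the log2 scale, or 0.634-fold (95% interval 0.521 to 0.771, limma adjusted p = 0.00128, and 0.000232 to 0.0256 over the alternatives). At 17 h of TSH it averaged 7.24 ± 0.20 in FRT/TSHR and 7.81 ± 0.18 in FRTL5, a difference of -0.57 ± 0.13 (adjusted p = 0.00515). That call was lost without the arrays numbered 1 (-0.37, adjusted p = 0.105) and when the 3 Klf10 probe sets were averaged (-0.25, adjusted p = 0.0628).

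The other 2 Klf10 probe sets did not pass in either comparison. Their basal differences were -0.12 ± 0.11 (U88630_at) and -0.10 ± 0.15 (rc_AI071299_at), and their 17 h differences 0.02 ± 0.11 and -0.21 ± 0.15. In these comparisons 2226 of 8740 probe sets passed at basal (25.5%) and 1786 at 17 h (20.4%), against 1 of 10 members in each. The basal comparison uses the FRTL5 basal arrays, which are also part of the contrast that chose the genes.

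Ccn1 and Zfp36 read higher in FRT/TSHR without passing. Ccn1 averaged 6.14 ± 0.26 in basal FRT/TSHR cells and 5.61 ± 0.04 in basal FRTL5 cells, with no overlap and a difference of 0.53 ± 0.45 (limma adjusted p = 0.475), and 5.92 ± 0.71 in FRT/TSHR and 5.26 ± 0.09 in FRTL5 at 17 h (0.67 ± 0.45, adjusted p = 0.370). The basal difference passed when only the 6 arrays compared were fitted (limma adjusted p = 0.0344). Choosing genes on their FRTL5 rise favours low FRTL5 basal values, which is the direction of this basal difference. The 17 h difference passed without the arrays numbered 1 (1.09, limma adjusted p = 0.00843). Zfp36 rc_AA800613_at averaged 6.36 ± 0.12 in FRT/TSHR and 5.91 ± 0.15 in FRTL5 at 17 h, also without overlap (0.45 ± 0.29, adjusted p = 0.361, and 0.0476 in a fit of the 6 arrays alone). Egr1 AF023087_s_at was lower in FRT/TSHR on every array at 17 h, at 5.87 ± 0.34 in FRT/TSHR and 6.57 ± 0.13 in FRTL5 (-0.70 ± 0.58, limma adjusted p = 0.494, and 0.0356 in a fit of the 6 arrays alone). The share of all probe sets whose arrays did not overlap between the lines was not counted. Nothing is therefore read from the lack of overlap for these members or for Klf10.

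**Figure D4:**
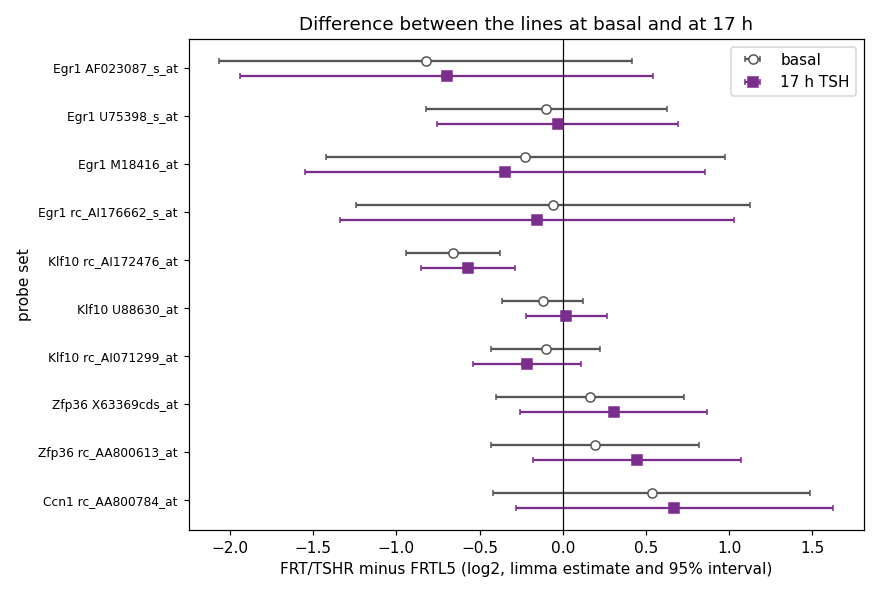
FRT/TSHR minus FRTL5 difference (x axis, log2, limma estimate with its 95% interval) for each probe set (y axis) at basal (open circles) and at 17 h of TSH (squares). The intervals of Klf10 rc_AI172476_at lie below 0 at both times, and all other intervals include 0.

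Ordered by mean level over the 6 groups, each gene stood highest in FRTL5 at 30 min. For Egr1 AF023087_s_at the order was then FRT/TSHR 30 min (7.51 ± 1.58), FRTL5 basal (6.86 ± 0.86), FRTL5 17 h (6.57 ± 0.13), FRT/TSHR basal (6.04 ± 0.15) and FRT/TSHR 17 h (5.87 ± 0.34). Neighbours below the top overlapped, except FRTL5 17 h and FRT/TSHR basal. That pair was not tested, and nothing is read from its lack of overlap. For Ccn1 the order was FRT/TSHR 30 min (6.38 ± 0.79), FRT/TSHR basal (6.14 ± 0.26), FRT/TSHR 17 h (5.92 ± 0.71), FRTL5 basal (5.61 ± 0.04) and FRTL5 17 h (5.26 ± 0.09), and the 3 FRT/TSHR levels overlapped. For Zfp36 X63369cds_at FRT/TSHR at 30 min (8.12 ± 0.19), 17 h (7.96 ± 0.12) and basal (7.87 ± 0.11) came above FRTL5 at basal (7.71 ± 0.17) and 17 h (7.65 ± 0.04), with overlap between each pair of neighbours. For Klf10 rc_AI172476_at all FRTL5 groups came above all FRT/TSHR groups, which stood at 7.33 ± 0.13 at basal, 7.24 ± 0.20 at 17 h and 7.16 ± 0.18 at 30 min and overlapped one another.

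Of 21 other immediate early genes listed, 15 were measured, and 13 averaged higher at 30 min in FRTL5 cells, with a median difference of 1.21 against 6e-04 over all probe sets. In the fit across all probe sets 5 of the 15 were called, all upward, against the 0.24% above, and 10 were not; the list was drawn up with this contrast known, so the count is a description. The 5 called were Nr4a1 and Nr4a3, orphan nuclear receptors (3.41 ± 0.33 and 1.46 ± 0.10), the AP-1 subunit Fos (2.45 ± 0.46), the MAP kinase phosphatase Dusp1 (2.08 ± 0.25) and the growth regulator Myc (1.39 ± 0.24). Without the arrays numbered 1 the count was 9, which held all 5. In FRT/TSHR cells 13 of the 15 were higher at 30 min too, with a median of 0.14 and 0 called. At basal Fosl1, Ier3, Myc and Sgk1 were higher in FRT/TSHR, by 2.42 to 2.87, and Nr4a2 was lower, by 0.42. These were 4 upward calls and 1 downward call among the 15 genes, against 25.5% of all probe sets called. The call of Nr4a2 was lost with either rescaling and without the arrays numbered 1.

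**Figure D5:**
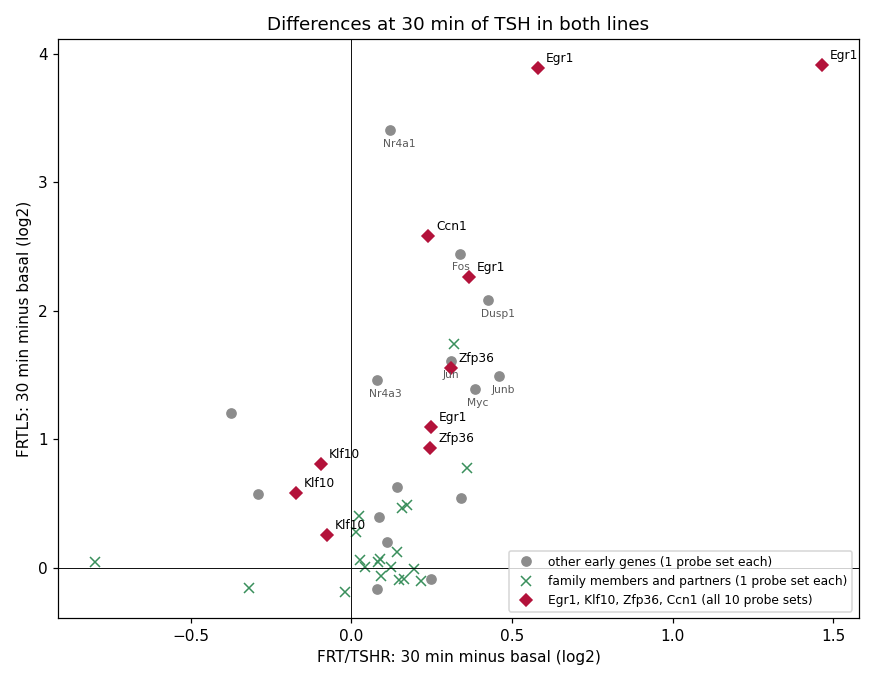
Difference at 30 min of TSH in FRT/TSHR (x axis) and in FRTL5 (y axis), both log2 against the basal group of the line, for the 10 member probe sets (red diamonds), the 15 other early genes (grey circles) and the family members and partners of the 4 genes (green crosses). The members were chosen by their y values; Egr1 AF023087_s_at is farthest right, at 1.47.

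Relatives and partners of the 4 genes were listed as well. For these and the lists that follow, 25.5% of all probe sets passed between the basal lines. The share was 20.4% between the lines at 17 h and 3.56% in FRTL5 at 17 h. In the EGR family list, 5 of 6 genes were measured and none passed in FRTL5 at 30 min. Egr2, a close relative of Egr1, had the largest difference (1.74 ± 0.41) and was called without the arrays numbered 1, while Egr3 and Egr4 differed by 0.07 ± 0.13 and 0.06 ± 0.16. The corepressor gene Nab1 was higher in FRT/TSHR by 0.60 ± 0.14 at basal (adjusted p = 0.00499), a call lost without the arrays numbered 1. In the KLF and SP list, with 6 of 15 measured, none passed at 30 min in either line, and Klf6 did in FRTL5 without the arrays numbered 1. Klf9, a hormone-responsive family member, was lower in FRTL5 at 17 h by 1.07 ± 0.24 (adjusted p = 0.0195, lost without the arrays numbered 1) and lower in FRT/TSHR than in FRTL5 at basal (-2.50 ± 0.24, adjusted p = 7.62e-07), Klf4 was higher in FRT/TSHR by 1.25 ± 0.17 at basal, and Klf6 had a basal difference of 0.72 ± 0.41 that passed only without the arrays numbered 1 and with the block within lines, and was higher at 17 h (1.46 ± 0.41, adjusted p = 0.0172).

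Zfp36l1, the family member of Zfp36, differed by 0.49 ± 0.28 in FRTL5 and 0.17 ± 0.28 in FRT/TSHR at 30 min, and none of the 4 measured genes of its AU-rich element list of 17, which also held Hnrnpd and Mapkapk2, passed in any tested comparison; Zfp36l1 was called lower in basal FRT/TSHR with quantile normalization and with the block within lines. Of the Ccn1 partners 5 of 13 were measured: Sdc4, Itgb3, Itgav and Itgam did not pass, and Itgb1, the integrin beta-1 subunit, was higher in FRT/TSHR by 1.25 ± 0.25 at basal (adjusted p = 0.00102) and 1.48 ± 0.25 at 17 h (adjusted p = 0.000273).

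Published targets of the 2 regulators were listed too. Of 15 EGR1 targets 12 were measured, and at 30 min 0 passed in either line, with medians of 0.02 in FRT/TSHR and 0.05 in FRTL5. At 17 h in FRTL5 cells 1 passed, the adhesion gene Icam1, lower by 0.86 ± 0.21 (adjusted p = 0.0333, lost without the arrays numbered 1); 3 passed with the replicate block within lines, adding F3 and Mmp14. Between the basal lines 9 of 12 passed, against 25.5% of all probe sets: Fn1, Ccnd1 and Gdf15 were higher in FRT/TSHR, by 2.29, 0.66 and 4.10, and F3, Tgfb1, Icam1, Vegfa, Mmp14 and Il2rb were lower, with differences of -3.71 to -1.13. Of 11 measured ZFP36 target transcripts of 15, 0 passed at 30 min or 17 h in either line. Between the basal lines 2 of the 11 passed upward and 2 downward, against 25.5% of all probe sets. Cxcl2 and Ier3 were higher in FRT/TSHR, by 0.72 and 2.62, and Ptgs2 and Vegfa were lower, by 0.42 and 1.13. Nos2 differed by -0.03. The call of Ptgs2 was lost without the arrays numbered 1. Of the TGF-beta list, 11 of 16 were measured. At 30 min 1 of the 11, Id1, was called in FRTL5, upward, against 21 of 8740 probe sets (0.24%), and 0 in FRT/TSHR. At 17 h Id1 was lower than at basal in FRTL5 by 0.68 ± 0.15 (limma adjusted p = 0.017, lost without the arrays numbered 1). Between the basal lines Smad2 and Id2 were higher and Tgfb1, Tgfb3, Id1 and Id3 lower in FRT/TSHR. This was 2 upward and 4 downward of the 11, against 25.5% of all probe sets. There Smad2 was lost with quantile normalization and Id1 without the arrays numbered 1.

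Upstream of the early genes, 3 of 17 genes of the serum response factor and MAP kinase list were measured. Between the basal lines 1 of them passed upward and 1 downward, against 25.5% of all probe sets. Map2k1, which encodes the kinase MEK1, was higher in FRT/TSHR at basal by 1.37 ± 0.21 (adjusted p = 0.000102), Araf was lower by 0.48 ± 0.15 (adjusted p = 0.0277, lost when array medians were subtracted), and Map2k2 differed by 0.27 ± 0.15. Of 18 cyclic AMP pathway genes 14 were measured, and 0 passed at 30 min or 17 h in either line. Between the basal lines 1 of the 14 passed upward and 3 downward, against 25.5% of all probe sets. Nothing about the pathway is read from these calls. At basal Gnas, the stimulatory G protein subunit, was lower in FRT/TSHR by 0.86 ± 0.13 (adjusted p = 8.09e-05), as were the protein kinase A regulatory subunits Prkar1a (by 0.57 ± 0.11) and Prkar2b (by 0.58 ± 0.16), while Prkar1b was higher by 0.56 ± 0.17 and the catalytic subunit Prkaca did not pass (-0.47 ± 0.25).

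The genes whose levels followed each member most closely over the 18 arrays, by Pearson's r and as a description, were Myl6 (0.93), Nr4a1 (0.88), Fos (0.87), Nr4a3 (0.87) and Egr2 (0.86) for Egr1. For Zfp36 they were Egr2 (0.89), Dusp1 (0.85), Acta1 (0.83), Junb (0.82) and Jun (0.81), and for Ccn1 Dusp1 (0.90), Jun (0.88), Egr2 (0.86), Myl6 (0.84) and Acta1 (0.84). For Klf10 a different set came out, Rhob (0.93), Id3 (0.91), Pex19, Mmp14 and Aopep (each 0.90). Of these Id3 and Mmp14 are lower in FRT/TSHR, as is the Klf10 probe set used here, rc_AI172476_at. Between the members themselves r ran from 0.33 (Klf10 and Zfp36) to 0.85 (Zfp36 and Ccn1) over 18 arrays, and from -0.66 to 0.62 for the same pairs over the 15 arrays without FRTL5 30 min. These arrays share lines and groups, and r between members rests in part on the 3 arrays that selected them.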

How the data were processed

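The authors deposited log2 signals for 8799 probe sets, made with RMA per the submitters' processing notes; the version and settings are not given in the sources used here, and no detection calls were used. Dropping 59 Affymetrix controls left 8740 for the tests. The platform annotation gave 1 symbol to 7006 of these, several to 308 and none to 1426. The means of the 6 groups were estimated from the 18 arrays in one fit with limma 3.58.1 in R 4.3.3 (lmFit, eBayes, two-sided, Benjamini-Hochberg over 8740 probe sets, 12 residual degrees of freedom), and was tested on simulated data. Values are log2 with limma SE or SD (n = 3), and the number of arrays limits the precision. Each limma SE of the main fit rests on the spread within all 6 groups, not only within the groups compared. All probe sets of the 4 genes are named; for lists and likeness a gene is its probe set with the highest mean, and list genes are named where they passed or were among the 3 highest in mean, with some of these left out. The members and lists were chosen with earlier results of these data known. Within a line, same-numbered arrays deviated together for 18 of 18 same-numbered array pairs (r = 0.15 to 0.80). Same-numbered differences are therefore given there. The main fit held no pairing, so its SEs and adjusted p-values are unpaired, and the replicate block was fitted only as an alternative. Across lines 17 of 27 pairs were over 0.1. No 2 arrays were duplicates (at most 0.0229% identical values). Alternatives changed the block, the arrays fitted, the scaling, the filter on dim probe sets, the variance model and the treatment of a gene's probe sets.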

Additional observations from a re-analysis of the deposited data

Results flagged for a closer look

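At 30 min every FRT/TSHR array of Klf10 rc_AI172476_at lay below, and every FRTL5 array above, the basal mean of its line. The 3 FRT/TSHR arrays lay at -0.38, -0.07 and -0.07 (mean -0.17) and the 3 FRTL5 arrays at 0.55, 0.73 and 0.47 (mean 0.58), so the FRT/TSHR effect minus the FRTL5 effect was -0.76 (log2). Between same-numbered arrays the split was not complete: the FRT/TSHR differences were -0.31, 0.01 and -0.22, and the FRTL5 differences 0.48, 0.87 and 0.41. The FRTL5 side of it selected the gene, and the difference was not tested.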

How the results depend on the processing

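Limits: 3 arrays a group, no scanner files, no detection calls. Of the 7 counts of members called, all stayed the same under quantile normalization, median subtraction, the filter on dim probe sets, trended and robust variances, array weights and both replicate blocks. Without all 6 arrays numbered 1 the count was 1 instead of 0 for FRT/TSHR 30 min minus basal and for 17 h minus 30 min (Egr1 AF023087_s_at in both). Of all probe sets 0.0229% passed in each of these comparisons. Fitting the compared arrays alone, it was 2 instead of 1 between the basal lines (Ccn1 added; 22.8% of all probe sets in that fit) and 3 instead of 1 between the lines at 17 h (Egr1 AF023087_s_at and Zfp36 rc_AA800613_at added; 17.5% of all), and with a gene's probe sets averaged it was 0 at 17 h. Leaving out 1 array at a time, the count ranged from 0 to 1 for FRT/TSHR 17 h minus 30 min and kept its value for the other comparisons. It was 1 without FRT/TSHR 30 min replicate 1, where 0.0915% of all probe sets passed. The cause was not tested. The number of probe sets called in FRTL5 at 17 h was 311, 508 with the replicate block shared by the lines, 867 within lines, 600 with array weights, 96 in a fit of the arrays compared and 152 to 253 leaving out 1 array; for the difference of the 17 h effects it was 69, 148, 365, 210, 22 and 33 to 83. No replicate block changed a call of a member.

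Differences that changed sign were not called in any setting. Without the arrays numbered 1 they were in FRT/TSHR 17 h minus basal 0.28 (Ccn1 rc_AA800784_at), in FRTL5 17 h minus basal 0.10 (Egr1 AF023087_s_at), -0.045 (Egr1 rc_AI176662_s_at) and 0.081 (Klf10 U88630_at), in the basal lines 0.12 (Klf10 rc_AI071299_at), in the lines at 17 h -0.088 (Klf10 U88630_at), in the difference of 17 h effects -0.21 (Egr1 AF023087_s_at) and 0.044 (Egr1 rc_AI176662_s_at). With array weights they were in FRTL5 17 h minus basal -0.0074 (Egr1 M18416_at), -0.022 (Egr1 rc_AI176662_s_at) and 0.16 (Klf10 U88630_at), in the lines at 17 h -0.019 (Klf10 U88630_at), in the difference of 17 h effects -0.045 (Egr1 U75398_s_at) and 0.0082 (Egr1 rc_AI176662_s_at). With array medians subtracted they were in the lines at 17 h 0.0032 (Egr1 U75398_s_at). With a gene's probe sets averaged they were in the difference of 17 h effects -0.0076 (Egr1 AF023087_s_at). Leaving out 1 array at a time gave these ranges. Those for FRT/TSHR 30 min minus basal were -0.21 to 0.016 (Klf10 rc_AI071299_at) and -0.17 to 0.62 (Ccn1 rc_AA800784_at). Those for FRT/TSHR 17 h minus basal were -0.27 to 0.053 (Egr1 M18416_at), -0.12 to 0.030 (Egr1 rc_AI176662_s_at), -0.15 to 0.078 (Klf10 rc_AI071299_at), -0.083 to 0.073 (Egr1 U75398_s_at), -0.078 to 0.14 (Zfp36 rc_AA800613_at), -0.19 to 0.012 (Klf10 rc_AI172476_at) and -0.55 to 0.16 (Ccn1 rc_AA800784_at). Those for FRT/TSHR 17 h minus 30 min were -0.023 to 0.18 (Klf10 rc_AI172476_at) and -0.04 to 0.17 (Klf10 rc_AI071299_at). Those for FRTL5 17 h minus basal were -0.66 to 0.17 (Egr1 AF023087_s_at), -0.025 to 0.12 (Egr1 rc_AI176662_s_at), -0.15 to 0.073 (Klf10 U88630_at), -0.21 to 0.048 (Egr1 U75398_s_at), -0.043 to 0.10 (Egr1 M18416_at) and -0.14 to 0.030 (Zfp36 X63369cds_at). Those for the basal lines were -0.21 to 0.011 (Klf10 rc_AI071299_at) and -0.23 to 0.012 (Egr1 U75398_s_at). Those for the lines at 17 h were -0.058 to 0.075 (Klf10 U88630_at) and -0.15 to 0.044 (Egr1 U75398_s_at). Those for the difference of 17 h effects were -0.35 to 0.49 (Egr1 AF023087_s_at), -0.055 to 0.20 (Egr1 U75398_s_at), -0.30 to 0.019 (Egr1 M18416_at), -0.23 to 0.0033 (Klf10 rc_AI071299_at), -0.0096 to 0.19 (Klf10 rc_AI172476_at) and -0.20 to 0.51 (Ccn1 rc_AA800784_at).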
